A study of Mus musculus with 35 samples.

Results

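The globin genes of the mouse were described in hematopoietic stem/progenitor cells (HSPCs) of bone marrow, with and without the histone demethylase JMJD1B. The 7 genes asked for were the adult alpha globin genes Hba-a1 and Hba-a2, the adult beta globin genes Hbb-b1 and Hbb-b2, the embryonic genes Hba-x and Hbb-bh1, and the alpha globin chaperone Ahsp, formerly Eraf. They were chosen by name from the deposited RNA-seq table, which lists 11982 gene names, and 6 of the 7 were found there, 4 adult and 2 embryonic. Ahsp was found under neither name and was not analysed here. The table holds 4 libraries of polyadenylated RNA, 2 from wild-type (WT) mice and 2 from JMJD1B-/- mice. All mice are of the strain 129P2xC57BL/6J. The JMJD1B-/- mice carry a gene-trap knockout in every tissue, derived from embryonic stem cells, and the WT mice were age-matched. The study used adult mice of both sexes, and the labels give neither age nor sex for a library. Nor do they say how many animals a library holds, or whether replicates came from separate animals. The p-values thus measure the spread between these libraries, which may be technical where replicates share a source.

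Hemoglobin is a tetramer of alpha-type and beta-type globin chains, each of which holds a heme group with the iron that binds oxygen. The genes lie in an alpha cluster and a beta cluster on different chromosomes, and in each cluster embryonic genes are used in the first red cells of the embryo and adult genes after the switch to definitive blood formation. Globin RNA builds up late in red cell maturation, in erythroblasts and reticulocytes, and is low in stem cells. AHSP holds free alpha chains in a stable form. GATA1 and KLF1, the main activators of the adult genes, recognise GATA and CACCC letters in promoters and in distant enhancers.

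The 250 bases upstream of the transcription start show what the adult genes share. Matching by gene symbol to RefSeq windows (build GRCm38.p6) gave such a window for 3 of the 6 genes found, Hba-a1, Hba-a2 and Hba-x. For the beta cluster, the windows of the adult genes of the reference strain, Hbb-bs and Hbb-bt, are shown. RefSeq gives Beta-s, an entry of the deposited table, as a synonym of Hbb-bs. The windows are chr11:32283422-32283671 on the plus strand for Hba-a1, chr11:32276350-32276599 on the plus strand for Hba-x, chr7:103827929-103828178 on the minus strand for Hbb-bs and chr7:103813924-103814173 on the minus strand for Hbb-bt. Each is printed 5′ to 3′ along its gene, with the motifs of the CAC box (CACCC), the CAAT box (CCAAT), the TATA box (TATAA) and GATA factors (GATAA) in capitals, also where the match is on the other strand.
Hba-a1: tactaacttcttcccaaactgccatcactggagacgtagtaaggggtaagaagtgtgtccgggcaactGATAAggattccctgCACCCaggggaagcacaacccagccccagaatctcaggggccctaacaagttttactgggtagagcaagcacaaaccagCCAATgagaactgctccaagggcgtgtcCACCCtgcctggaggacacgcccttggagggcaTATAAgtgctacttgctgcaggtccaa
Hba-x: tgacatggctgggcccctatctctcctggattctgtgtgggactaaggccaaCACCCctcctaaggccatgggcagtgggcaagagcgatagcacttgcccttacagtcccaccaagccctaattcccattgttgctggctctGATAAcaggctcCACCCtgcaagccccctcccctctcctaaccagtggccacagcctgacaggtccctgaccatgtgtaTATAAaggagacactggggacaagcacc
Hbb-bs: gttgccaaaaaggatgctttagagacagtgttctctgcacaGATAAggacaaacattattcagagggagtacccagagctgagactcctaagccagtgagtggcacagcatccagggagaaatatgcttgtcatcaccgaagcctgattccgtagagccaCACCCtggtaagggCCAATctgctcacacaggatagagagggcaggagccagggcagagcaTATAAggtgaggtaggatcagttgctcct
Hbb-bt: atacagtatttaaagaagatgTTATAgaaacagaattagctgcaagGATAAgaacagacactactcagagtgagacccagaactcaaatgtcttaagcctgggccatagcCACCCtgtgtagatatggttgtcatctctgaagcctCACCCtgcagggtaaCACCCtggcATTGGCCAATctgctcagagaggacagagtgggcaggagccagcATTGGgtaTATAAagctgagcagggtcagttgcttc
The Hba-a2 window, chr11:32296242-32296491 on the plus strand, shares an identical run of 247 of its 250 bases with that of Hba-a1 and is not printed.

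Each of the 4 motifs was searched on both strands, and no match overlapped another motif. The windows of Hba-a1, Hba-a2, Hbb-bs and Hbb-bt held all 4, as did 272 (1.01%) of the 27025 promoter windows of the same length. Singly, CACCC was found in 51.3% of all windows, CCAAT in 34.5%, TATAA in 23.5% and GATAA in 23.0%. In Hba-a1, TATAA lay at bases -27 to -23 from the start, CCAAT at -88 to -84, CACCC at -60 to -56 and at -167 to -163, and GATAA at -182 to -178. Hba-x held the CAC box, the TATA box and the GATA letters but no CCAAT, the motif that starts at base -88 in Hba-a1. Hbb-bs held 1 match of each motif, and Hbb-bt held 3 of CACCC, 3 of CCAAT, 2 of TATAA and 1 of GATAA. The embryonic beta-cluster gene Hbb-y, whose RNA was not analysed here, held CCAAT and no TATAA, so the embryonic genes Hba-x and Hbb-y lacked different motifs. The theta globin genes Hbq1a and Hbq1b, which lie in the alpha cluster near the adult genes, held neither CACCC nor GATAA. A match is a run of letters and not a bound site.

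**Figure D1:**
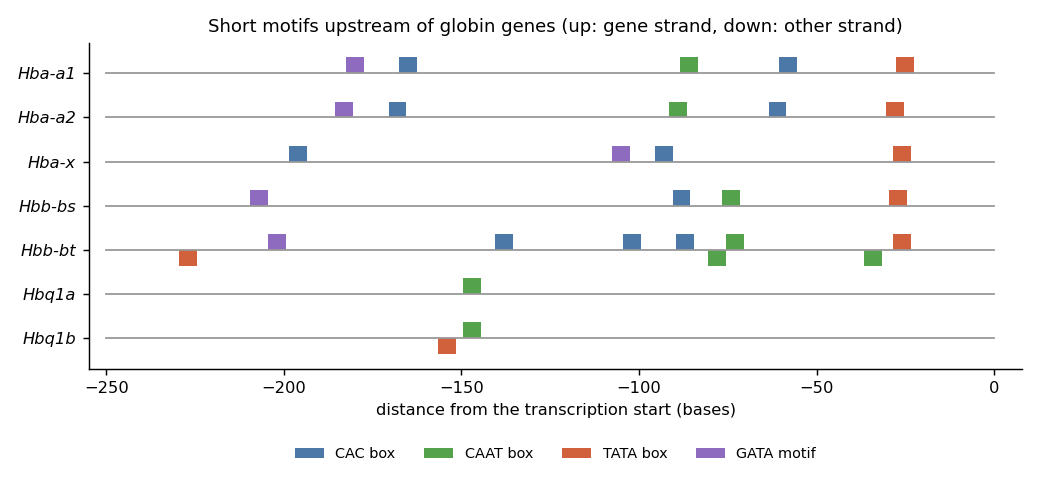
Positions of 4 short motifs in the 250 bases upstream of globin genes. The x axis is the distance from the transcription start in bases, boxes above a line are matches on the gene's strand and boxes below it are matches on the other strand. Hba-a1, Hba-a2, Hba-x, Hbb-bs and Hbb-bt each have a TATA box within 30 bases of the start, and Hba-x has no CAAT box.

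Values are RPKM, read counts scaled by transcript length and by library size, so that levels of different genes are set side by side per length. The authors had added 1 to each value, and this was removed. Kdm3b, the gene of JMJD1B, checked the genotypes, at 31.0 and 24.3 RPKM in WT against 3.996 and 4.63 RPKM in JMJD1B-/-, a mean of 15.6% of that in WT. The depth, estimated from low genes whose values fit whole reads, was 17.5M and 24.6M reads (M, mega) in WT replicates 1 and 2, against 6.11M and 21.0M reads in JMJD1B-/- replicates 1 and 2. JMJD1B-/- replicate 1 is thus the shallowest library. WT replicate 2 stood apart in Xist, the RNA of the inactive X chromosome, with 332 RPKM against at most 0.0510 in the other libraries. The WT libraries are therefore not repeats of 1 RNA source, while the JMJD1B-/- libraries may be. All 12 stem and progenitor markers looked for were above 0 in each library, and their median log2 fold change was -0.80. Genotypes were compared on log2(RPKM + 0.1) over 11863 genes with limma, and a gene is called higher or lower where its unadjusted p was under 0.05.

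The adult alpha globin genes were higher in both JMJD1B-/- libraries than in both WT libraries. Hba-a1 stood at 42.6 and 53.2 RPKM in WT replicates 1 and 2, against 141 and 371 RPKM in JMJD1B-/- replicates 1 and 2. Hba-a2 stood at 42.3 and 52.8 RPKM in WT, against 140 and 368 RPKM in JMJD1B-/-. The groups did not overlap, and the lower JMJD1B-/- library was 2.66 times the higher WT library for both genes. The mean of Hba-a1 was 47.9 ± 7.45 RPKM in WT and 256 ± 163 RPKM in JMJD1B-/- (SD, n = 2 libraries each), which is 5.35 times the WT mean. The JMJD1B-/- libraries differed from each other by 2.63 times and the WT libraries by 1.25 times. The log2 fold change of Hba-a1 was 2.26 (SE 0.41, 95% interval 1.31 to 3.22), with an unadjusted p of 0.000707 and an adjusted p of 0.162 in limma. Hba-a2 gave the same log2 fold change of 2.26 and the same adjusted p of 0.162. In bulk RNA such as this, more cells of a type and more RNA per cell cannot be told apart.

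The adult beta globin genes showed the same order of libraries. Hbb-b1 reached 51.6 and 85.2 RPKM in WT replicates 1 and 2, against 157 and 437 RPKM in JMJD1B-/- replicates 1 and 2. Hbb-b2 reached 53.0 and 87.4 RPKM in WT, against 161 and 449 RPKM in JMJD1B-/-. JMJD1B-/- replicate 2 was highest and WT replicate 1 lowest for all 4 adult genes, and here too the groups did not overlap, the lower JMJD1B-/- library being 1.84 times the higher WT library. The mean of Hbb-b1 was 68.4 ± 23.7 RPKM in WT and 297 ± 198 RPKM in JMJD1B-/- (SD, n = 2 libraries each), a ratio of 4.34. Its log2 fold change was 1.98 (SE 0.46, 95% interval 0.90 to 3.05), with an unadjusted p of 0.00311 and an adjusted p of 0.254 in limma. Hbb-b2 had a log2 fold change of 1.98 and an adjusted p of 0.254.

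Of the 5 globin genes that passed the filter on low values, a mean of at least 0.5 RPKM, 4 were called higher, against 3.81% of all genes tested, and 0 of the 5 passed an adjusted p of 0.05 in limma, against 0.0421% of all genes. In the 4 adult genes the JMJD1B-/- values did not overlap those of WT and were higher, as in 20.1% of all genes. A log2 fold change of at least that of Hbb-b1 was found in 52 genes, 0.438% of those tested. With the gene-by-gene test, which does not share the spread over genes, 0 of the 5 were called. The adult genes stayed called when any 1 library was left out. The log2 fold changes of Hba-a1 and Hbb-b1 were 2.42 and 2.34 when the Xist-bearing WT replicate 2 was left out, and 2.96 and 2.72 without the shallowest library. They were 2.10 and 1.62 without WT replicate 1, and 1.57 and 1.24 without JMJD1B-/- replicate 2, the library with the highest globin levels.

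**Figure D2:**
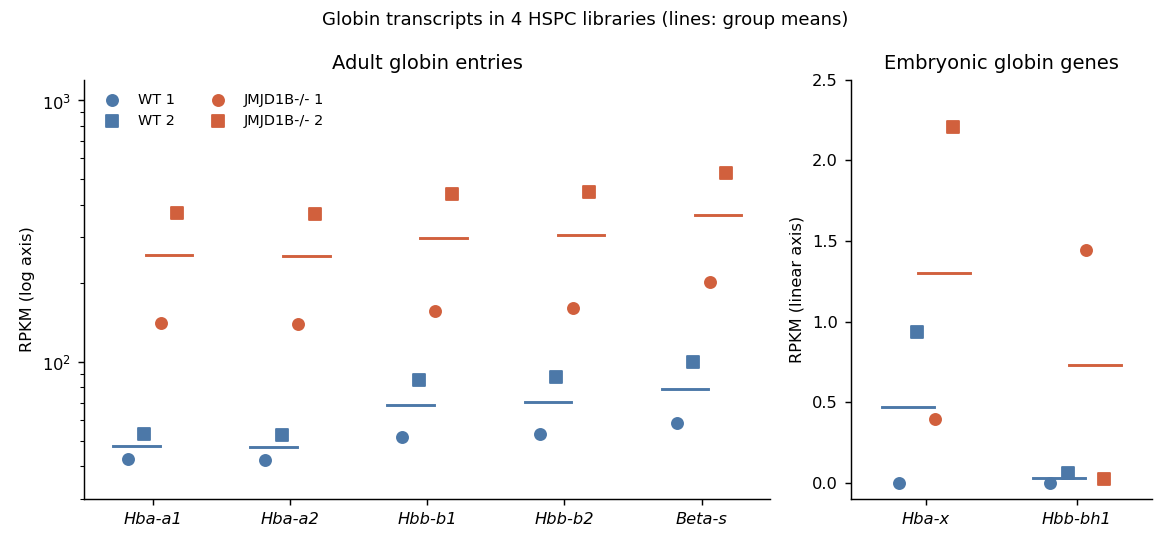
RPKM of adult globin entries on a log axis (left) and of embryonic globin genes on a linear axis (right) in the 4 HSPC libraries, with short lines at the group means. The JMJD1B-/- libraries lie above the WT libraries in all 5 adult entries, Beta-s included, while the 2 embryonic genes stay under 2.3 RPKM and their groups overlap.

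The 4 adult entries are not 4 independent measurements. The ratio of Hba-a1 to Hba-a2 was 1.01 in every library and varied by 0.0393% between them, and that of Hbb-b2 to Hbb-b1 was 1.03 and varied by 0.00137%. At the estimated depth and the length of the whole gene, counting error alone would move a ratio of separate reads by 1.77% to 5.73% at the level of Hba-a1 and by 1.25% to 3.98% at that of Hbb-b1, and by less if the depth is greater. The values cannot be told apart from the same reads counted for both copies, so each pair is 1 measurement, and which copy was transcribed cannot be read from them. Beta-s, a further adult beta entry of the table, did vary against Hbb-b1, by 14.0%. Beta-s stood at 58.3 and 99.9 RPKM in WT, against 202 and 529 RPKM in JMJD1B-/-, again without overlap. Its log2 fold change was 2.10 (SE 0.45), with an unadjusted p of 0.00193 and an adjusted p of 0.211 in limma. Laboratory strains carry different adult beta globin haplotypes, and the labels do not say which one a library has.

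Summed over the 4 adult genes, globin RNA was 189.5 and 279 RPKM in WT, against 599 and 1625 RPKM in JMJD1B-/-. The mean was 234 ± 62.9 RPKM in WT and 1112 ± 726 RPKM in JMJD1B-/- (SD, n = 2 libraries each). The difference of the mean log2 values was 2.10, that is 4.29-fold, with an exact permutation p of 0.333 (two-sided), the smallest that 2 libraries against 2 allow. The alpha genes alone gave 4.81-fold and the beta genes alone 3.95-fold, with the same exact p of 0.333. Counting each pair as 1 measurement, the sum of Hba-a1, Hbb-b1 and Beta-s differed by 4.29-fold on the same scale.

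Adult globin RNA was a small part of these libraries. The 4 genes made up 0.0481% and 0.0735% of all summed RPKM in WT, against 0.150% and 0.367% in JMJD1B-/-. This share counts both entries of each pair, which may hold the same reads, and leaves out Beta-s. Hbb-b1 ranked 926 and 501 from the top of the listed genes in the WT libraries and 251 and 131 in the JMJD1B-/- libraries. Hba-a1 ranked below it in each library, at 1241 and 993 in WT and at 281 and 147 in JMJD1B-/-. With RPKM, 89.6% of the listed genes lay below Hba-a1 in WT replicate 1 and 98.8% in JMJD1B-/- replicate 2.

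The balance of alpha to beta RNA moved less than either level. The ratio of the summed alpha to the summed beta genes was 0.812 and 0.614 in the WT libraries and 0.886 and 0.835 in the JMJD1B-/- libraries. The JMJD1B-/- values were the higher ones, and the larger gap was between the WT libraries themselves. The means were 0.713 ± 0.140 in WT and 0.860 ± 0.0358 in JMJD1B-/- (SD, n = 2 libraries each). The log2 difference was 0.28 (1.22-fold), with an exact permutation p of 0.333, the smallest possible. Without WT replicate 2 it was 0.08, and without WT replicate 1 it was 0.49. Set against Beta-s in place of Hbb-b1 and Hbb-b2, the summed alpha genes had ratios of 1.46 and 1.06 in WT and 1.39 and 1.40 in JMJD1B-/-, which overlap (exact permutation p = 1). The ratio of Beta-s to Hbb-b1 was 1.13 and 1.17 in WT and 1.29 and 1.21 in JMJD1B-/-, a log2 difference of 0.12 with an exact permutation p of 0.333. Levels of Ahsp could not be set against those of its client.

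**Figure D3:**
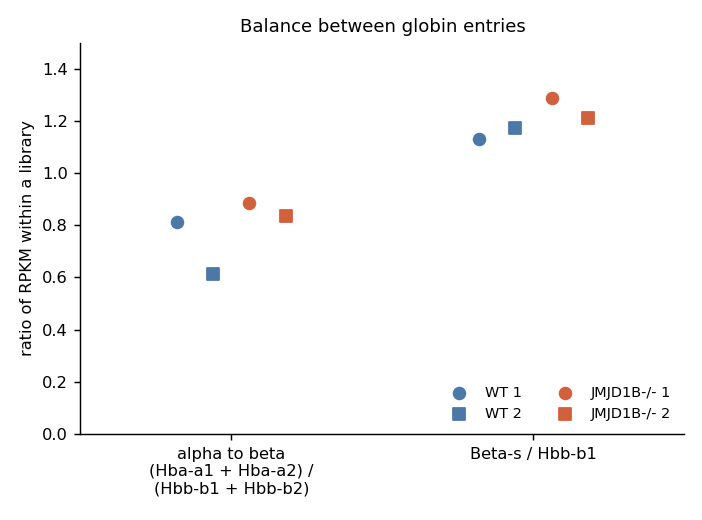
Ratios of RPKM within each of the 4 libraries, for the summed alpha over the summed beta genes (left) and for Beta-s over Hbb-b1 (right), on a linear axis from 0. The alpha to beta ratio spans 0.614 to 0.886, with WT replicate 2 lowest, and Beta-s over Hbb-b1 spans 1.13 to 1.29.

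The embryonic genes were low, and both were listed at 0 in WT replicate 1. Hba-x, the embryonic zeta chain of the alpha cluster, was listed at 0 in WT replicate 1 and at 0.937 RPKM in WT replicate 2, against 0.394 and 2.21 RPKM in JMJD1B-/- replicates 1 and 2. The groups overlapped, and the log2 fold change of 1.73 (SE 1.38, 95% interval -1.51 to 4.97) had an unadjusted p of 0.250 and an adjusted p of 0.702 in limma. At the estimated depth and the length of the whole gene, an upper bound for the transcript, the values above 0 are at most 35.0 reads in WT replicate 2 and at most 3.65 and 70.4 reads in JMJD1B-/- replicates 1 and 2. A greater depth would raise these bounds. The fitted difference was 0.04 without WT replicate 1 and 3.42 without WT replicate 2, so it depends on the library listed at 0. Without JMJD1B-/- replicate 1 it was 2.84, and without JMJD1B-/- replicate 2 it was 0.62. Hba-x passed the filter through the JMJD1B-/- libraries, since its WT values average 0.468 RPKM, so its tests say little about a difference. It also moved with the constant added before the log, to 0.60 with 1 and to 3.28 with 0.01 in place of 0.1.

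Hbb-bh1, an embryonic gene of the beta cluster, was listed at 0 in WT replicate 1 and at 0.0625 RPKM in WT replicate 2, against 1.45 and 0.0213 RPKM in JMJD1B-/- replicates 1 and 2. Only the shallowest library stood above 0.1 RPKM, with at most 13.5 reads by the same estimate. JMJD1B-/- replicate 2 had at most 0.683 of a read by the estimated depth, less than 1 whole read, and whether reads were counted in fractions or the depth is underestimated was not tested. The gene fell below the filter and was not tested. At the estimated depth, the RPKM that 3 reads on 1 kb would give lies between 0.122 in WT replicate 2 and 0.491 in the shallowest library. By that estimate, a difference under these levels was not detectable. Adult genes exceeded Hba-x and Hbb-bh1 by far in each library, the lowest adult value being 42.3 RPKM and the highest embryonic value 2.21 RPKM.

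The theta globin genes, which neighbour the adult alpha genes, had low values of another order. Hbq1a had 1.04 and 0.603 RPKM in WT and 0.270 and 0.627 RPKM in JMJD1B-/-. Hbq1b had 0.837 and 1.57 RPKM in WT and 0.218 and 1.14 RPKM in JMJD1B-/-. Neither was called, with log2 fold changes of -0.79 (unadjusted p = 0.398 in limma) and -0.997 (unadjusted p = 0.298 in limma) and overlapping groups. Of the 10 other globin genes looked for, Beta-s and these 2 were in the table.

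Heme is made for globin, and its synthesis runs through 9 listed enzyme genes. Of these 9, 6 were called higher and 1 lower (all genes, 3.81% and 6.33%), with a median log2 fold change of 0.65 against -0.02 over all genes tested. Alas2, the erythroid form of the first enzyme, had 1.71 and 1.08 RPKM in WT and 4.38 and 8.85 RPKM in JMJD1B-/-, 2.12 on the log2 scale (SE 0.47, adjusted p = 0.221 in limma). Its ubiquitous counterpart Alas1 was the gene called lower, with 25.6 and 22.1 RPKM in WT and 17.9 and 8.66 RPKM in JMJD1B-/- (log2 fold change -0.93, unadjusted p = 0.0275 in limma). The later enzyme Cpox had 41.1 and 63.5 RPKM in WT and 88.6 and 106 RPKM in JMJD1B-/-, a log2 fold change of 0.92. Ppox, the next enzyme of the pathway, was not called, at 0.16 on the log2 scale.

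Of 21 genes of iron and heme transport and turnover, 7 were called higher and 0 lower (all genes, 3.81% and 6.33%), and the list's median was 0.39 on the log2 scale. Steap3, the ferrireductase that frees iron taken up with transferrin, had 14.9 and 17.0 RPKM in WT and 28.9 and 38.8 RPKM in JMJD1B-/- (log2 fold change 1.07, adjusted p = 0.204 in limma). Hmox1, the inducible enzyme that breaks heme down, reached 14.8 RPKM in JMJD1B-/- replicate 1 alone, against 2.405 and 1.52 RPKM in WT and 1.58 RPKM in JMJD1B-/- replicate 2, and was not called (unadjusted p = 0.187 in limma). The constitutive heme oxygenase Hmox2 and the iron-responsive RNA-binding protein gene Ireb2 had log2 fold changes of -0.15 and -0.10 and were not called.

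Among 25 regulators known to act on the globin clusters or in red cell formation, 3 were called higher, 1 was called lower and 21 were not called, with a median of 0.08. The share called lower is under the 6.33% of all genes, and 3.81% of all genes were called higher. Klf1, an activator of adult beta globin, had 23.0 and 31.0 RPKM in WT and 52.0 and 74.6 RPKM in JMJD1B-/- (log2 fold change 1.22, SE 0.24, adjusted p = 0.197 in limma). Gfi1b, a repressor needed for red cell and platelet formation, had 24.3 and 23.2 RPKM in WT and 35.5 and 50.7 RPKM in JMJD1B-/- (log2 fold change 0.84). Gata1, the other gene called higher, had a log2 fold change of 0.63. Gata2, a stem and progenitor factor that GATA1 replaces at shared sites as red cells mature, had 73.3 and 52.9 RPKM in WT and 28.4 and 46.9 RPKM in JMJD1B-/-, a log2 fold change of -0.77 (unadjusted p = 0.0275 in limma). Lyl1, a relative of Tal1, was not called at -0.44.

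Of 24 genes of the red cell membrane and cytosol, 14 were called higher and 0 lower (all genes, 3.81% and 6.33%), with a median of 0.68. Slc4a1, the band 3 anion exchanger, had 3.62 and 4.55 RPKM in WT and 8.16 and 19.6 RPKM in JMJD1B-/- (log2 fold change 1.62, adjusted p = 0.291 in limma). Tspo2, a membrane protein of late erythroblasts, and Cat, catalase, were not called, with log2 fold changes of -0.08 and 0.00. In none of these 4 lists did a gene pass an adjusted p of 0.05, the lowest being 0.155 for Car2, a carbonic anhydrase, in limma.

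The counts depend on the libraries and on the test. Without WT replicate 1, 1 heme synthesis gene, 3 iron genes and 7 red cell genes were called higher, and the share of all genes called higher was 1.04%. Without the shallowest library, JMJD1B-/- replicate 1, the regulators called higher numbered 9, and the share of all genes 10.6%. The gene-by-gene test called 0, 2, 0 and 1 genes higher in the heme, iron, regulator and red cell lists, and 2.93% of all genes.

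**Figure D4:**
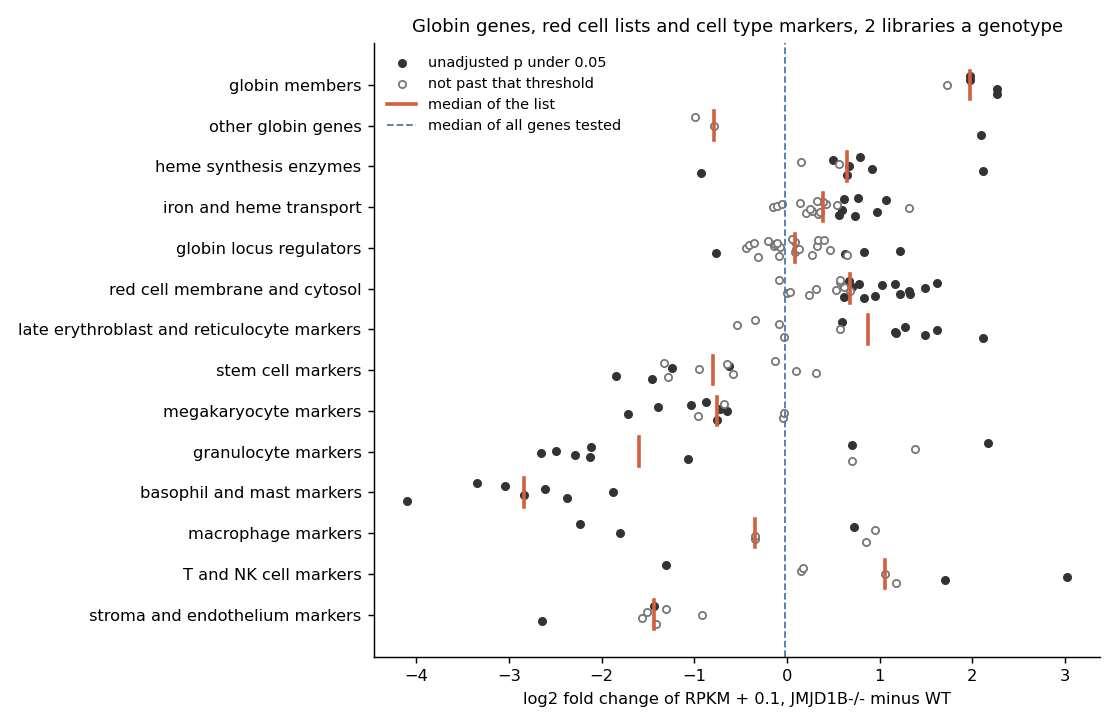
Log2 fold changes, JMJD1B-/- minus WT on log2(RPKM + 0.1), of the tested genes of each list (points), with the list's median (red bar) and the median of all genes tested (dashed line at -0.02). Filled points have an unadjusted p under 0.05 in limma, and 4 of the 5 globin members and 14 of 24 red cell genes are filled to the right of the dashed line, while all 7 basophil and mast markers are filled to its left.

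Markers of maturing red cells and of other blood cells moved beside the globin genes. Of 12 markers of late erythroblasts and reticulocytes, all were in the table, none was at 0 in any library and 7 were called higher (all genes, 3.81%), with a median log2 fold change of 0.88. The gene-by-gene test called 2 of them higher. Their summed level was 176 to 226 RPKM in the WT libraries and 306 to 337 RPKM in the JMJD1B-/- libraries. Bnip3l, the most abundant of them and a receptor for the clearance of mitochondria in reticulocytes, was not called at -0.03. The log2 fold change was negative in 4 of the 12, and in 2 of these, Trim58 (-0.54) and Xpo7 (-0.34), which were not called, the JMJD1B-/- values were below those of WT without overlap. Alas2 and Slc4a1 stand in this list as well as in those above.

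Markers of basophils and mast cells, megakaryocytes and granulocytes were mostly lower, against 6.33% of all genes called lower and 3.81% called higher. All 7 basophil and mast cell markers were called lower, with a summed level of 505 to 576 RPKM in WT and 46.4 to 113 RPKM in JMJD1B-/-. Prss34, a basophil protease with the highest mean of them over the 4 libraries, was at -3.35 on that scale (adjusted p = 0.00637 in limma). Of 11 megakaryocyte markers, 7 were called lower, with a summed level of 735 to 786 RPKM in WT and 323 to 451 RPKM in JMJD1B-/-, and Pf4, platelet factor 4, at -1.39. Of the 10 granulocyte markers tested, 6 were called lower and 2 higher, with a summed level of 207 to 304 RPKM in WT and 59.1 to 98.4 RPKM in JMJD1B-/-. Mpo, myeloperoxidase and the most abundant, had a log2 fold change of -2.65, and Prtn3, proteinase 3, one of -2.11 (adjusted p = 0.04998 in limma). The markers called higher were S100a9 at 2.17 and S100a8 at 0.70, the subunits of calprotectin. Ltf, lactoferrin of late granules, was below the filter, at 0.205 and 0.0442 RPKM in WT and 1.28 and 0.397 RPKM in JMJD1B-/-.

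Of 12 stem cell markers, 4 were called lower and 0 higher (all genes, 6.33% and 3.81%), with a summed level of 217 to 233 RPKM in WT and 143 to 177 RPKM in JMJD1B-/-, and 10 of the 12 had a negative log2 fold change. The surface protein gene Cd34 was among those called lower, with 42.9 and 43.5 RPKM in WT and 20.9 and 11.7 RPKM in JMJD1B-/- (-1.46), as were the receptor gene Flt3 (-1.84) and the transcription factor gene Mecom (-1.24). The most abundant, the receptor gene Kit, was not called at 0.10. The 7 macrophage markers in the table had a summed level of 34.9 to 40.9 RPKM in WT and 34.0 to 46.5 RPKM in JMJD1B-/-, with 1 called higher and 2 lower. The most abundant of them, Slc40a1, the iron exporter ferroportin, was the gene called higher. It had 12.3 and 17.9 RPKM in WT and 23.1 and 26.1 RPKM in JMJD1B-/-, a large part of the list's sum. Csf1r (-1.80) and Vcam1 (-2.23) were the genes called lower. The 7 T and NK cell markers summed to 19.7 to 25.5 RPKM in WT and 11.2 to 49.7 RPKM in JMJD1B-/-, with 2 called higher, 1 lower and a median of 1.06, which was -0.45 without JMJD1B-/- replicate 1. The genes called higher were the T cell receptor complex chains Cd3g and Cd3e, and their highest values, 11.7 and 7.98 RPKM, were in that library. Cd3g averaged 0.459 RPKM in WT and passed the filter through the JMJD1B-/- libraries. Nkg7, a cytotoxic granule gene with the highest mean over the 4 libraries, was called lower at -1.30. The 7 stroma and endothelium markers, led by Pecam1, summed to 40.2 to 70.6 RPKM in WT and 11.3 to 24.6 RPKM in JMJD1B-/-, with 2 called lower. Their median of -1.44 was 0.06 without WT replicate 2 and -2.67 without WT replicate 1. Of 8 B cell markers 1 was in the table, Cd79b, a B cell receptor chain, at 3.28 and 1.99 RPKM in WT and 1.22 and 0.631 RPKM in JMJD1B-/-. The part of these shifts in cell type markers in the higher globin levels was not tested.

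The genes whose pattern over the 4 libraries was most like the summed adult globins were found by the Euclidean distance between log2(RPKM + 0.1) profiles, each centred on its own mean, among 11209 other genes with a mean of at least 1 RPKM. The median distance was 2.36. The nearest was Beta-s at 0.160, followed by Slc4a1 at 0.528, the heat shock gene Hspa1b at 0.740, the membrane trafficking gene Ehd2 at 0.776 and the serine protease gene Prss50 at 0.801. Next came the zinc and manganese transporter Slc30a10 at 0.803, Reep6 at 0.864, the histone gene Hist3h2ba at 0.878, Alas2 at 0.887 and Crip2 at 0.934. The distances of Hba-a1 and Hbb-b1 themselves were 0.235 and 0.172. In all 10 genes the JMJD1B-/- values exceeded those of WT without overlap, which a small distance to the globin profile makes likely by itself, so no test is given for them. Hspa1b, Ehd2, Slc30a10 and Reep6 were low genes, with at most 0.473, 0.942, 0.669 and 1.29 RPKM in the WT libraries. With 4 libraries, likeness is a description and not a sign of shared control.

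**Figure D5:**
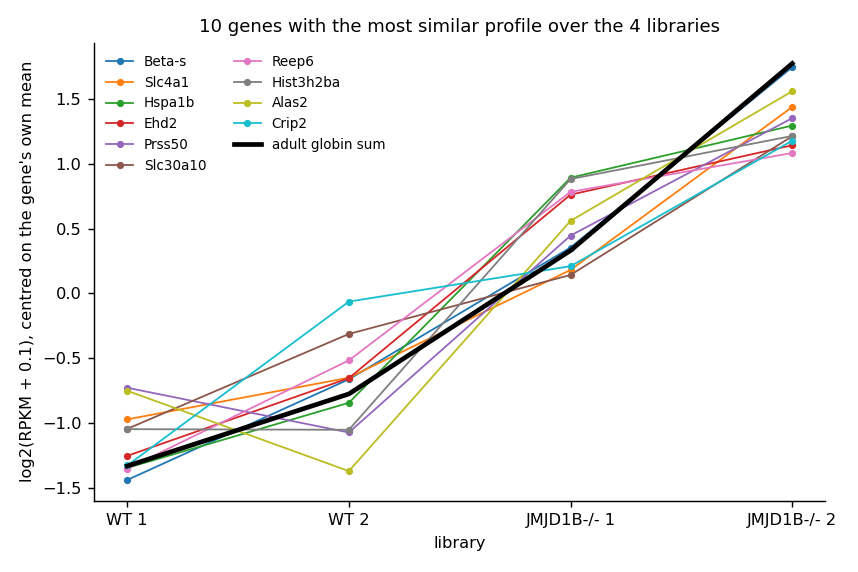
Log2(RPKM + 0.1) of the 10 genes nearest to the summed adult globins (thick line), each centred on its own mean, in the 4 libraries. The lines only join points of 1 gene, and each gene is higher in both JMJD1B-/- libraries than in both WT libraries, with JMJD1B-/- replicate 2 highest.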

How the data were processed

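The authors deposited RPKM values per gene and library with 1 added, which was subtracted here, and 84 entries that shared 42 names were averaged by name. The highest deposited value of a gene is at least 2.00, so a gene below 1 RPKM throughout has no row. The submitters' processing notes name TopHat2, Novoalign and mm9 without their roles, and the counting program is not given in the sources used here. Read counts were not recovered. Depth was estimated from 277 low genes of whole reads (tolerance 0.4%), and 9 of them gave the same depth against 4 for the next value.

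R 4.3.3 and limma 3.58.1 were used for the two-sided comparison of genes with a mean of at least 0.5 RPKM, on the scale log2(RPKM + 0.1), through lmFit and a trended eBayes with no covariate, with Benjamini-Hochberg adjustment over 11863 genes. Such fold changes understate those of low genes. limma replaces the gene-by-gene Student test that the study names for its data in general, which was run as an alternative. Sums and ratios were compared by exact permutation over libraries. The limma script was tested on simulated data. Upstream windows were matched by gene symbol to RefSeq, since no genome of the files' build was used. Python 3.11.15 (pandas 2.3.3, numpy 2.4.6, matplotlib 3.10.9) made tables and figures.

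The members and gene lists were chosen with earlier results of these data known. Genes were named by a rule. In the globin, heme, iron, regulator and red cell lists it took genes with a mean of at least 1 RPKM. These were the 2 with the lowest and the 2 with the highest log2 fold change, and any with an adjusted p under 0.05. It also took the most abundant gene of each marker list and the 10 genes of most similar profile. A gene that this rule names is not reported here. Gata1, Car2, Cd3e, Cd3g, Cd34, Flt3, Mecom, Prtn3, S100a8, S100a9, Ltf, Trim58, Xpo7, Csf1r, Vcam1 and the theta genes were named after their values were seen. Alternatives were pseudocounts of 1 and 0.01, no filter or a mean of at least 1 RPKM, 3 other scalings, entries of a name summed, the gene-by-gene test, limma without a trend, a replicate block and leaving out each library. ChIP samples and Ahsp were not analysed here.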

Additional observations from a re-analysis of the deposited data

How the results depend on the processing

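The adult globin genes were higher in JMJD1B-/- under each alternative run, and all 4 had an unadjusted p under 0.05 in limma under each except the gene-by-gene test, where 0 globin genes were called. Leaving out 1 library at a time moved the log2 fold change over 1.57 to 2.96 for Hba-a1, 1.57 to 2.96 for Hba-a2, 1.24 to 2.72 for Hbb-b1 and 1.24 to 2.72 for Hbb-b2. The adjusted p in limma was 2.24e-05 for Hba-a1 and 0.000232 for Hbb-b1 without JMJD1B-/- replicate 1, 0.00243 and 0.0251 without JMJD1B-/- replicate 2, and 0.989 to 1.000 for both without a WT library. In such fits the lone library is assumed to vary like the other group. The summed adult globins moved over 1.38 to 2.82, and 4 to 5 globin genes were called.

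Over all genes, leaving out 1 library called 123 to 1258 genes higher and 177 to 1819 lower at an unadjusted p under 0.05, and 0 to 147 higher and 0 to 523 lower at an adjusted p under 0.05. The 4 adult globin genes are 0.0481% to 0.367% of all summed RPKM. Scaling each library to the same summed RPKM without these and the other globin entries called 278 higher and 1217 lower. The median of all genes was then -0.14 in place of -0.02, and 81.4% of its calls were lower against 62.4%. With quantile normalization 51.7% were lower. At an adjusted p under 0.05, 1 gene was higher and 4 were lower. The gene-by-gene test and limma without a trend gave 0 higher and 0 lower, a pseudocount of 1 gave 3 and 15, and quantile normalization and median-ratio scaling each left 0 lower. There were 2 lower with a mean of at least 1 RPKM, with a pseudocount of 0.01 and with scaling without the globin genes. The cause of these moves was not tested.

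Replicate numbers did not pair the libraries: deviations of same-numbered libraries had a correlation of -0.05 over 11863 genes. With the replicate block, 83 genes higher and 173 lower passed the adjusted threshold. The log2 fold changes stayed at 2.26 for Hba-a1 and Hba-a2 and at 1.98 for Hbb-b1 and Hbb-b2. Their adjusted p values in limma were 2.2e-07 for the alpha pair and 8.82e-07 for the beta pair. Since the numbers paired no libraries, the block has no ground in the design. Its calls and p values add no evidence for a difference. The planned ratio of Ahsp to alpha globin was not run, since Ahsp was not analysed here. Differences within a few reads, as for Hba-x in the shallowest library, were not detectable at the estimated depth.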
